A study of Drosophila melanogaster with 2 samples.

Results

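The 10 genes described here regulate the mesoderm, the visceral muscle and the heart of the Drosophila melanogaster embryo. They are twi, Mef2, tin, bap, bin, htl, stumps, Doc1, Doc2 and Doc3, of 13945 protein-coding genes on the main chromosome arms. They were chosen by their known roles, but with earlier results of these data known. Peaks were assigned to them where the peak summit, its highest point, lay in the gene body or within 10 kb of it. Binding of E(spl)mδ-HLH was mapped by ChIP-seq, sequencing of immunoprecipitated chromatin, in a transgenic line stably expressing the protein with a C-terminal GFP. Chromatin came from whole embryos of both sexes aged 2 to 12 h, in 1 group of 2 biological replicates, so there is no second genotype, treatment or stage to compare. The antibody label names HLHmδ, and a free-text label calls both samples input control although each has peaks called against a control alignment. They were treated as immunoprecipitated chromatin. The promoter that drives the fusion is not given in the sources used here.

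E(spl)mδ-HLH is a transcriptional repressor with a basic helix-loop-helix domain, and its gene is among those of the Enhancer of split complex that respond to Notch. In the mesoderm, Twist starts the programme, FGF signalling through Heartless and its adaptor Stumps spreads the cells, and Tinman then directs dorsal mesoderm towards heart and gut muscle. Notch singles out muscle and heart progenitors from groups of equivalent cells. The peak lists come from all cells of the embryo together, so a peak seen in few nuclei and a weak peak in many cannot be told apart, and the lists hold no expression values with which to check the tissue.

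Of the 10 genes, 6 had a thresholded peak in reach, and 4 had none. Mef2, tin, bap, stumps, Doc2 and Doc3 were the 6, and twi, bin, htl and Doc1 the 4. The background was high: 43.0% of all protein-coding genes had a thresholded summit in the body or within 10 kb. Among genes whose window was shorter than 30 kb the share was 40.7%, and among those with a window of 50 kb or more 58.7%. The 3 genes in the longer class here are twi, Mef2 and stumps, and the other 7 have windows of 21.6 to 27.8 kb. A count of 6 of 10 is therefore not read as a property of these genes. Inside the gene body alone, 2 of the 10 had a summit, Mef2 and stumps, beside 9.06% of all protein-coding genes. Within 2 kb of an annotated start site, 4 of the 10 had a summit, Mef2, tin, stumps and Doc3, beside 16.9% of all protein-coding genes. Mef2 and stumps, which are in both counts, have 3 and 5 start sites and bodies of 45.4 and 30.9 kb. The gene twi, with 3 start sites and a body of 63.0 kb, is in neither count. No share was computed for genes with as many starts or as long a body, so these counts are not read as a property of the genes either. Among the strongest 1000 thresholded peaks, 4 of the 10 had a summit in reach, Mef2, tin, bap and stumps, beside 21.2% of all protein-coding genes. Of these 4, bap counted only through the peak at the tin start, and the stumps peak was nearer to the start of another gene, CG14853. No test was run on these counts, because the genes were proposed with results of these data known.

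Between them, the 6 genes had 15 distinct thresholded peaks, 5 at Mef2, 5 at stumps, 3 at tin and 2 in the Doc cluster. The peak at the tin start also counted for bap, and both Doc peaks counted for Doc2 and Doc3. The pooled list of 30000 peaks, which includes background by its deposited type, held 138 peaks at the 10 genes. All 10 had a pooled peak in reach, as did 92.1% of all protein-coding genes. The 2 replicate lists of the same length held 147 in replicate 1 and 135 in replicate 2. Signal is the authors' enrichment value for each peak, on a scale of its own in each list, so it is used only for rank within a list. The 15 peaks had a median signal of 144 (118 to 295), beside 162 over all 2750 thresholded peaks. Their median rank was 1779, beside 1375.5 for the whole list, and 10 of the 15 lay in its weaker part.

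**Figure D1:**
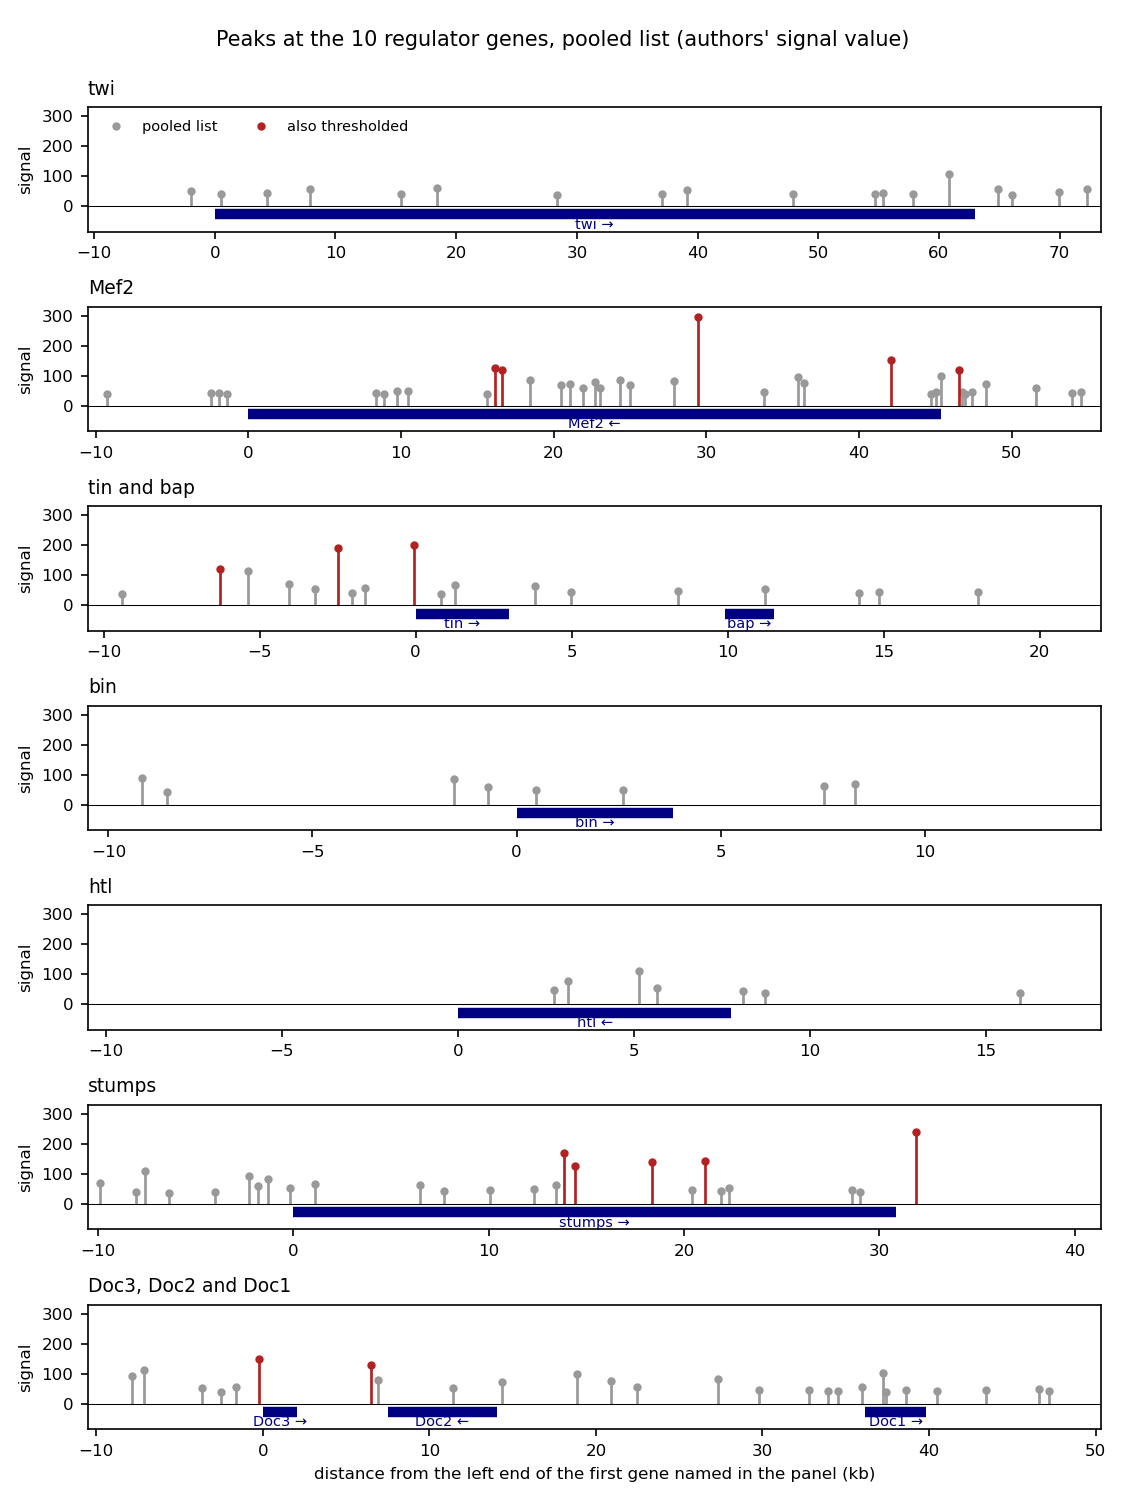
Pooled peaks at the 10 genes. Each stem is a summit, the horizontal axis is the distance in kb from the left end of the first gene of the panel, the vertical axis the authors' signal in the pooled list, and arrows give the direction of transcription. The 15 red stems, at Mef2, tin, stumps and the Doc cluster, are also in the thresholded list and reach from 118 to 295, whereas twi, bin and htl show grey stems up to 110.

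The sequences around 6 of the summits, all outside annotated UTRs, are shown. The summit labelled tin upstream lies 2487 bp from tin and nearer, at 911 bp, to a start of another gene, mod(mdg4). The others lie within 1484 bp of a start site of the gene named. Each sequence is 101 bases of the Release 6 genome (dm6), centred on the summit and read on the plus strand. Capitals mark the E-box core CANNTG, the general site of basic helix-loop-helix proteins, the N-box CACNAG, and TNAAGTG, a site of NK-2 class homeodomain proteins such as Tinman, each searched on both strands. E-box and NK-2 matches overlapped at 1 summit at Mef2 and 1 at stumps, neither of which is printed.
tin start, chr3R:21378863-21378963: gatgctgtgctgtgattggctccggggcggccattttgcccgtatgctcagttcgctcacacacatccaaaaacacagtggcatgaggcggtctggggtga
tin upstream, chr3R:21376440-21376540: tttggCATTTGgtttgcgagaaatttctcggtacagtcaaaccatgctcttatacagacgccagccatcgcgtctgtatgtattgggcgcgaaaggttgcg
Doc3 start, chr3L:9004901-9005001: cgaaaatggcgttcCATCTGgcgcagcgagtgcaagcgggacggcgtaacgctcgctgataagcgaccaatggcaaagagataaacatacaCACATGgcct
stumps intron a, chr3R:14591039-14591139: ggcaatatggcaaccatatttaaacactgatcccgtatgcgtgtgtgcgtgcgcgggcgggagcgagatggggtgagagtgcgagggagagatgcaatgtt
stumps intron b, chr3R:14595550-14595650: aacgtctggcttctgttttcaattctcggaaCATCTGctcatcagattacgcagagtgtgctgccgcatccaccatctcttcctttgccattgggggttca
stumps intron c, chr3R:14598232-14598332: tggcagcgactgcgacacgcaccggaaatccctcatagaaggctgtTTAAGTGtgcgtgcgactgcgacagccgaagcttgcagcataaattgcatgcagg

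The Twist gene twi (FBgn0003900, 2R 22985374 to 23048325, plus strand), which encodes the basic helix-loop-helix activator that specifies mesoderm, had no thresholded peak. Its body spans 63.0 kb because 1 annotated start site lies far upstream, and the other start sites lie at 23046108 and 23046322. The strongest pooled peak, 94 bp upstream of the start at 23046322, had a signal of 108 and rank 3155, not far below the last thresholded peak. In replicate 2 that site ranked 1249 with a signal of 73.9, whereas the matched peak of replicate 1 ranked 23480 with a signal of 25.6. The twi promoter peak thus stood high in 1 replicate and far down the list of the other. The second strongest pooled peak of the locus ranked 10515, and 3 of the 18 pooled peaks of the locus had a match in both replicates. The nearest thresholded summit lay 24216 bp from the gene.

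Mef2 (FBgn0011656, 2R 9913496 to 9958858, minus strand), the MADS-box gene of muscle differentiation, carried the strongest peak of the 10 genes. Its position was 2R 9942959 to 9943024, with a signal of 295 and rank 296 of 2750. The summit lay in a 5' UTR exon, 1786 bp downstream of the start site at 9944764. The site ranked 595 in replicate 1 (signal 140.3) and 178 in replicate 2 (signal 148), so it was among the strong peaks of both. At 66 bp it was narrow: the other 14 peaks were 250 bp wide, and 10.1% of all thresholded peaks were under that width, 25 of them no wider than 66 bp.

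The other Mef2 peaks were weaker, and their ranks differed between replicates to unequal degrees. An intronic peak (2R 9955469 to 9955718, signal 153, rank 1558) lay 3264 bp downstream of the most upstream start, with rank 1065 in replicate 1 and 5339 in replicate 2. At the start site at 9929615, 1 of 3 annotated for Mef2, a peak with its summit 6 bp upstream had a signal of 124 and rank 2418, with ranks of 2979 and 2195 in replicates 1 and 2. A neighbour 474 bp upstream of the same start (signal 118, rank 2688) ranked 607 in replicate 2 and 13185 in replicate 1. The fifth peak (2R 9959920 to 9960169, signal 119, rank 2649) counted for Mef2 by distance, but its summit lay 33 bp upstream of the start of Pal1. Its rank was 1168 in replicate 1, and it had no summit within 100 bp in replicate 2, the only one of the 15 without such a match in both. The most upstream Mef2 start itself had a pooled peak below the threshold (rank 3719), with ranks of 2611 in replicate 1 and 14856 in replicate 2.

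The gene tin (FBgn0004110, 3R 21378977 to 21381970, plus strand), the NK homeodomain gene required for the heart and visceral muscle, had a peak on its promoter. The summit of that peak (3R 21378788 to 21379037, signal 202, rank 835) lay 64 bp upstream of the single annotated start site. Its rank was 1696 in replicate 1 (signal 89.8) and 439 in replicate 2 (signal 109), within the strongest 2750 of both lists. The 101 bases of the tin start printed above hold none of the 3 marked motifs.

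A second tin peak (3R 21376365 to 21376614, signal 189.6, rank 963) lay 2487 bp upstream of tin, in an intron of mod(mdg4), a gene of a chromatin insulator protein. This peak was nearer to a start of mod(mdg4), 911 bp away, than to tin. It was stronger in replicate 1 (rank 622, signal 138) than in replicate 2 (rank 2187, signal 58.3), the opposite of the promoter peak, so the order of these sites by rank turned between replicates. A peak further out (3R 21372570 to 21372819, signal 119, rank 2642) had its summit 6282 bp upstream of tin in an exon annotated as 5' UTR of the mod(mdg4) locus, nearer to other starts than to tin. It was the sole summit window of the 15 with an N-box, with ranks of 4978 in replicate 1 and 1410 in replicate 2.

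The neighbouring NK homeodomain gene bap (FBgn0004862, 3R 21388880 to 21390449, plus strand), a regulator of visceral muscle, had no peak of its own in the thresholded list. It counted through the tin promoter peak, whose summit lay 9967 bp from the bap body, just inside the 10 kb limit. The next summit outward, the upstream tin peak, lay 12390 bp away. With summits counted once for the gene with the nearest start, bap, Doc2 and no other of the 6 lost their call, leaving Mef2, tin, stumps and Doc3. On that rule 12.9% of all protein-coding genes had a summit within 10 kb. The strongest pooled peak at bap after the tin promoter peak ranked 8474 and lay inside the tin gene, so the body of bap and its promoter held no peak of that rank or higher.

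The forkhead gene bin (FBgn0045759, 3L 6990622 to 6994447, plus strand), which acts with bap in visceral mesoderm, had no thresholded peak. Its strongest pooled peak (rank 4376, signal 90.4) lay 9175 bp upstream and nearer to Galphai, a G protein gene, with ranks of 2606 in replicate 1 and 3459 in replicate 2. Closer to bin, a pooled peak 1539 bp upstream ranked 5003, with 13223 in replicate 1 and 2863 in replicate 2. Of the 8 pooled peaks at bin, 5 were matched in both replicates. A thresholded peak stood just outside the limit: its summit was 10545 bp from bin and 33 bp upstream of a Galphai start (signal 127, rank 2307).

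The FGF receptor gene htl (FBgn0010389, 3R 18045216 to 18052984, minus strand) had no thresholded peak in reach, and stumps, the gene of its adaptor, had 5. The 7 pooled peaks of htl were the fewest of any gene here, although per 10 kb of window htl had 2.52, more than the 2.17 of twi. The strongest, in an intron 1004 bp upstream of the start at 18049366, had a signal of 109.7 and rank 3087, with ranks of 4882 in replicate 1 and 2456 in replicate 2. The nearest thresholded summit lay 10378 bp upstream of htl (signal 129, rank 2235), just outside the limit, and htl had the nearest start site to it.

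The stumps gene (FBgn0020299, 3R 14577217 to 14608079, plus strand) held 5 thresholded peaks, 4 of them inside the gene. The strongest of the 5 (3R 14608974 to 14609223, signal 241, rank 524) lay 1020 bp beyond the end of stumps and 543 bp upstream of CG14853, a gene nearer to it than any stumps start. Replicate 1 gave it rank 407 (signal 161) and replicate 2 rank 1060 (signal 79.4). Inside the gene, the peak labelled intron a above (signal 168, rank 1249) lay 531 bp upstream of the start at 14591620, with ranks of 1621 and 1298 in replicates 1 and 2. A peak 15 bp downstream of that start (signal 128, rank 2274) ranked 1750 in replicate 1 and 7025 in replicate 2.

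The 2 remaining stumps peaks lay further down the gene. Intron b (signal 138, rank 1948) was 1198 bp upstream of the start at 14596798 and ranked 2910 in replicate 1 and 1850 in replicate 2. It holds the E-box CATCTG, which also reads as a match to GCAGNTG on the other strand. Intron c (signal 144, rank 1779) was 1484 bp downstream of the same start, within an exon of the long non-coding RNA gene lncRNA:CR46153, and ranked 2931 and 1380. Its TTAAGTG, an NK-2 class match, begins 4 bp before the summit.

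The Dorsocross genes Doc1, Doc2 and Doc3 encode T-box factors of the dorsal ectoderm and the heart-forming mesoderm, and stand in a cluster on 3L. Doc3 (FBgn0035954, 9005196 to 9007249) and Doc1 (FBgn0028789, 9041375 to 9045042) are on the plus strand, and Doc2 (FBgn0035956, 9012686 to 9019246) lies between them on the minus strand. The Doc3 promoter carried the strongest peak of the cluster. That peak (3L 9004826 to 9005075, signal 147, rank 1685) had its summit 245 bp upstream of the Doc3 start and ranked 1842 in replicate 1 and 1513 in replicate 2, a smaller gap than at the strongest peak of Mef2, tin or stumps. The second peak (3L 9011552 to 9011801, signal 129.99, rank 2199) was intergenic, between Doc3 and Doc2, with ranks of 3100 and 1618. It lay 1009 bp beyond the 3' end of Doc2, 6481 bp downstream of the Doc3 start and 1839 bp upstream of CG5194, the nearest start.

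Doc1 and Doc2 had no thresholded peak within 2 kb of their starts. The strongest pooled peak at Doc1 (signal 102, rank 3534) lay in its intron, 590 bp downstream of a start, and ranked 2353 in replicate 1 and 22298 in replicate 2. A pooled peak 4818 bp upstream of Doc2 (rank 3749) ranked 3894 and 5809, so it stood at a similar middle level in both. The nearest thresholded summit to Doc1 was the intergenic peak, 29698 bp away.

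**Figure D2:**
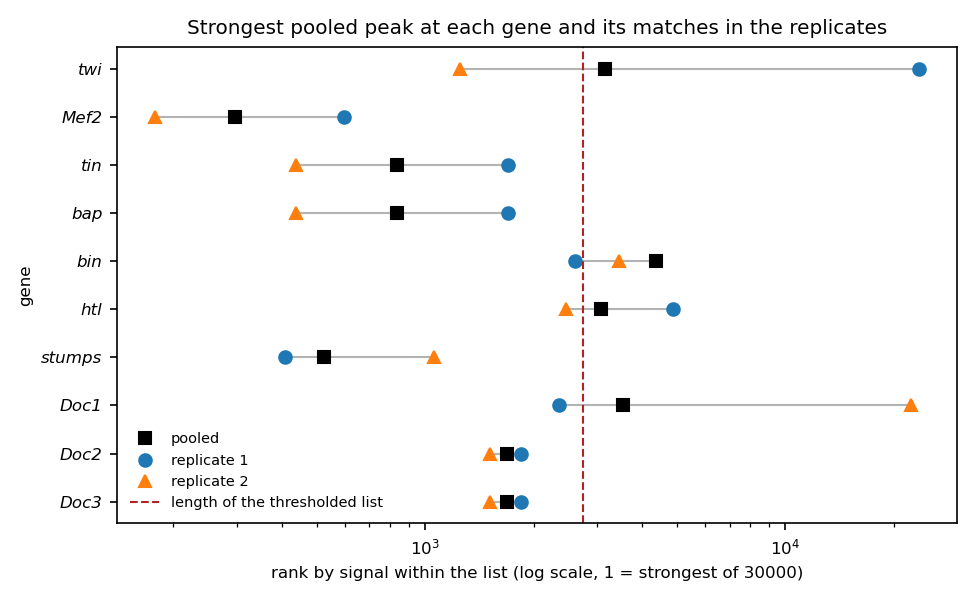
Rank of the strongest pooled peak at each of the 10 genes (square) and of its matched peak in replicate 1 (circle) and replicate 2 (triangle), on a log axis where rank 1 is the strongest of 30000. The dashed line is the 2750 peaks of the thresholded list. Mef2, tin, stumps and the Doc3 peak stay to its left in both replicates, and the markers of twi and Doc1 lie far apart.

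The replicates differed in the genes that they added to the 6. Among the strongest 2750 peaks of replicate 1, 8 of the 10 genes had a summit in reach, beside 42.7% of all protein-coding genes. They were the 6 genes above with bin and Doc1. Among the strongest 2750 of replicate 2, 8 genes again had a summit, beside 43.8% of all genes, and here the additions were twi and htl. Mef2, tin, bap, stumps, Doc2 and Doc3 were therefore called in each list, and each of the other 4 in 1 replicate alone. Within 2 kb of a start the counts were 5 of 10 in replicate 1 (16.5% of all genes), with Doc1 added, and 6 of 10 in replicate 2 (17.0% of all genes), with twi and htl added.

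The 15 peaks were found in both replicates with few exceptions, but at uneven ranks. A summit within 100 bp stood in both replicate lists for 14 of them (93.3%, exact binomial 95% interval 68.1 to 99.8), beside 97.0% of all thresholded peaks. The pooled reads include those of each replicate, so such a match is not independent. Among the strongest 2750 peaks of both replicates 6 of 15 were matched (40%, interval 16.3 to 67.7), beside 60.5% of all thresholded peaks, which that interval includes. By replicate, 9 of 15 were matched in the strongest peaks of replicate 1 (83.1% overall) and 12 of 15 in those of replicate 2 (75.5% overall). For the 14 matched peaks the higher rank number was a median of 2.97 times the lower, beside 1.91 times for all 2667 matched peaks. In 10 of the 14 the rank was better in replicate 2, beside 44.5% overall. The median rank of the 15 was 1779, beside 1375.5 for the whole list, and 5 of them ranked above that middle. The part of peak strength in these differences was not tested.

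**Figure D3:**
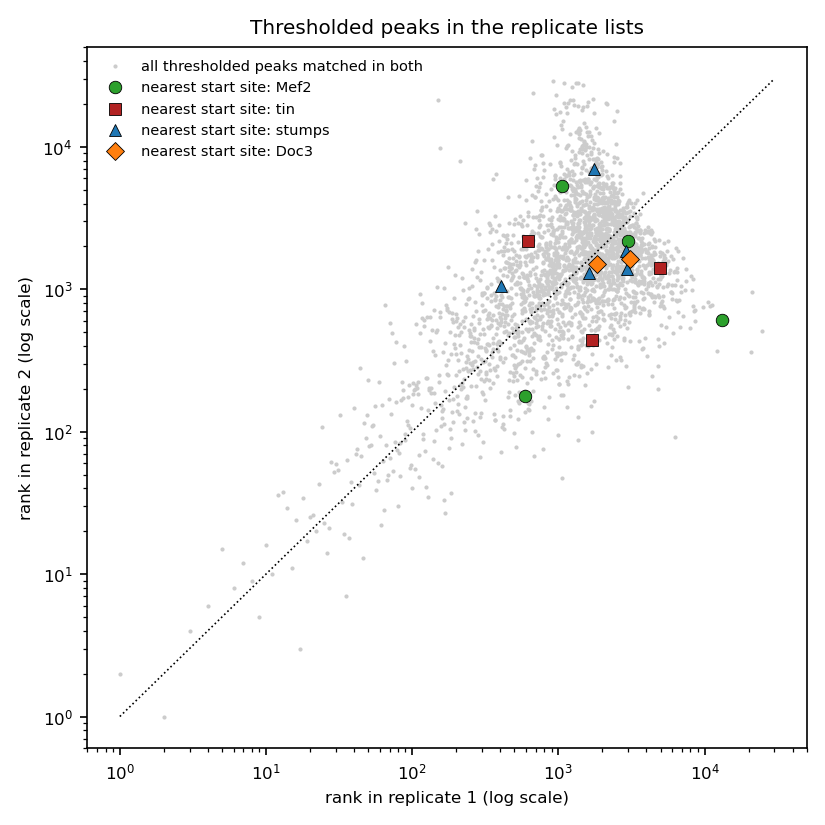
Ranks of thresholded peaks in replicate 1 (horizontal) and replicate 2 (vertical), both log axes, for all 2667 peaks matched in both lists (grey) and the 14 matched peaks at the regulator genes, coloured by the gene of the 10 with the nearest start site. The dotted line marks equal ranks. Of the coloured points 10 of 14 lie below the line, and their median ranks are 1796 in replicate 1 and 1461.5 in replicate 2, beside 1384 and 1438 for the grey points.

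Of the 15 summits, 6 (40%, exact binomial 95% interval 16.3 to 67.7) were within 500 bp of a protein-coding start, beside 55.4% of all 2750, a share inside that interval. Introns held 4, 5' UTR exons away from those starts 2, intergenic sequence 2, and an exon of a non-coding gene 1. The median distance to the nearest protein-coding start was 543 bp, beside 300 bp overall. Base composition was close to that of the list, with a mean GC content of 52.7% (SD 5.58, n = 15 windows) beside 51.2% (SD 6.56, n = 2750). The windows of the 10 genes covered 340 kb with 4.41 thresholded summits per 100 kb, beside 2.26 per 100 kb in the windows of all protein-coding genes. Mef2 and stumps held 10 of the 15 summits. Because the genes were proposed with results of these data known, this density is not read as a property of the 10 genes.

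The sites that repressors of this family are known to bind were counted first. In the 101-base windows, the N-box CACNAG occurred in 1 of 15, at the mod(mdg4) exon upstream of tin, beside 17.1% of all thresholded summits (exact binomial 95% interval for 1 of 15, 0.169 to 31.9). In windows centred 500 bp to the left and right of the 15 summits it occurred in 2 and 4, beside 12.5% of all on each side. The class B E-box CACGTG (3.35% of all) and the class C E-box CACGCG (8.47% of all) occurred in 0 of 15, a count that allows a share of up to 20.0% when the limit is set at 3 counts of 15. Any of the 3 was present in 27.0% of all thresholded windows and in 16.1% of windows centred 500 bp to the left, both inside the interval for 1 of 15. The E-box core CANNTG was at a similar level here, in 7 of 15 against 48.7% of all. In the whole deposited peaks 4 of 15 held an N-box, class B or class C site, beside 46.7% of all thresholded peaks, so the count depends on the window.

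Sites of mesodermal factors were also counted. The NK-2 class sequence TNAAGTG occurred in 4 of 15 windows, 2 at Mef2 and 2 at stumps, beside 5.20% of all thresholded windows and 6.36% of the left windows (interval for 4 of 15, 7.79 to 55.1). It is 1 of 17 motifs counted, and no test was run. The forkhead core TAAACA was found in 4 of 15 against 11.0% of all, including the Doc3 start and the stumps introns a and c, and in intron c it overlaps the NK-2 match. The E-boxes CATATG and CACATG, known as Twist sites, were in 1 and 2 windows, beside 3.64% and 8.36% of all. CACATG stands near the right end of the Doc3 start sequence. The Mef2 site was in 0 of 15 and in 0.436% of all windows, the T-box core GGTGNNA in 1 (17.3% of all), the GATA core GATAA in 1 (15.8%), the Su(H) core GTGNGAA in 0 (6.84%), the Snail type E-box CACCTG in 0 (4.55%), GCAGNTG in 1 (9.75%), the Zelda type site CAGGTAG in 1 (0.982%), the GAGA repeat GAGAG in 2 (28.5%) and the reordered control GTGCAC in 0 (4.0%). These counts also moved with the window. Over whole peaks the T-box core was in 4 of 15 (33.5% of all), the GATA core in 6 (33.7%), the GAGA repeat in 8 (48.6%), GCAGNTG in 6 (19.3%) and the NK-2 class sequence in 6 (12.2%). With 100 bp on either side of the summit the NK-2 class sequence was in 7 of 15, beside 10.2% of all. With 15 windows each count is imprecise, and a match does not show binding.

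Other genes of mesoderm, muscle and heart development ranged widely. Of 49 listed genes, 23 (46.9%) had a thresholded summit in the body or within 10 kb, close to the 43.0% of all protein-coding genes. Within 2 kb of a start 15 of the 49 had a summit, beside 16.9% of all. The list was chosen with earlier results of these data known, and 11 of the 49 windows were of 50 kb or more. No start-site share was computed for genes of like length, so the 15 are not read as a property of the list. For 6 of the 23 the strongest peak was nearer to the start of another gene. Myoblast fusion genes were called in 7 of 9 cases, among them mbc (signal 402, 1501 bp downstream of a start), whose product activates Rac during fusion, and the scaffold gene rols (273, 995 bp downstream), while lmd and rst were not called. Their windows were long, with a median of 43.4 kb and 4 of 9 of 50 kb or more, the class in which 58.7% of all genes were called. The body of kirre spans 394 kb, and its strongest peak lay 35670 bp from its nearest start. The peaks of blow and Vrp1 were nearest to the starts of scra and mei-S332. Somatic muscle identity genes were called in 7 of 11, led by Kr (224, 20 bp upstream of a start) and slou (188, 4295 bp upstream), with ap and eve among those without a peak. Their median window was 27.4 kb, and for 3 of the 7 the strongest peak was nearest to another gene.

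Genes of early mesoderm were called in 4 of 7, beside 43.0% of all protein-coding genes. Their median window was 33.6 kb, and for 1 of the 4 the strongest peak was nearest to another gene. The homeobox gene Six4 had 5 peaks in reach, the strongest with a signal of 417 and rank 116, 106 bp upstream of a start, and zfh1 a peak of 262, 1367 bp downstream. The repressor gene sna and Him were not called. Of the 2 FGF ligand genes of Heartless, pyr had a peak 2 bp from its start (signal 137, rank 1993) and ths had none. Heart genes were called in 3 of 6, beside the same 43.0%, with a median window of 34.0 kb. The strongest were tup (150.4, 5 bp from a start) and pnr (130.5, 24 bp from a start), and Hand and H15 were without a peak. The visceral mesoderm receptor gene Alk and its ligand gene jeb had none. Of 12 genes of muscle structure, 1 was called, Tm1 (167, 44 bp upstream of a start), and Mhc and Act57B were among the 11 without a peak. The median window of this class was 28.2 kb.

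**Figure D4:**
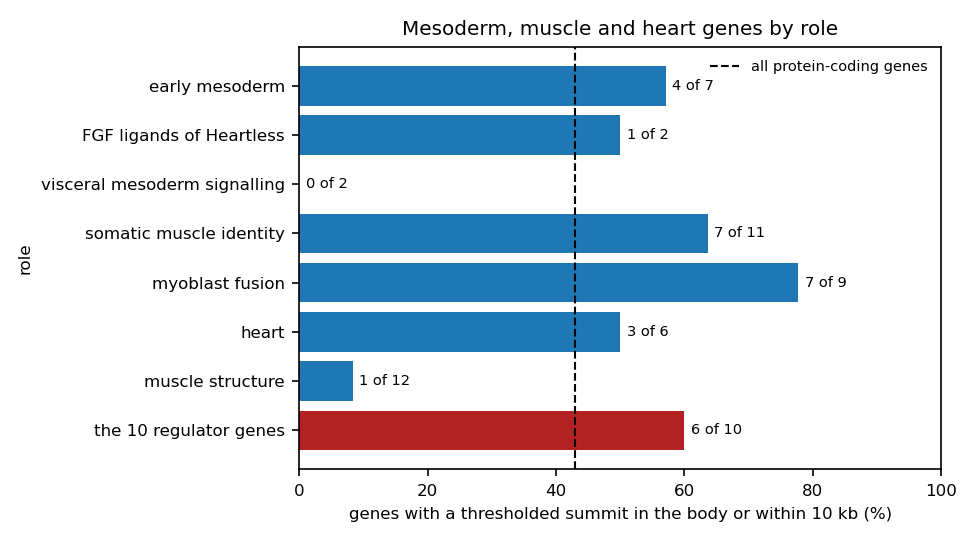
Share of genes with a thresholded summit in the gene body or within 10 kb, in percent, by role in mesoderm, muscle and heart development (blue) and for the 10 regulator genes (red), with called and listed genes beside each bar. The dashed line is 43.0%, the share of all protein-coding genes. Myoblast fusion genes stand at 7 of 9 with a median window of 43.4 kb and muscle structure genes at 1 of 12 with 28.2 kb.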

How the data were processed

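Per the deposited file listing, the authors called peaks on assembly dm6 for each of 2 replicates and on both pooled, against the same control, kept 30000 peaks in each list, and thresholded them on the irreproducible discovery rate to 2750. No caller, setting or depth is given in the sources used here. The authors' signal ranked peaks within a list. The deposited −log10 q value was at its ceiling in 9 of the 15 peaks, beside 73.8% of all thresholded peaks. Summit offsets are another deposited column. Summit coordinates are 1-based.

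Genes came from Ensembl release 115 (BDGP6) and sequence from RefSeq Release 6, both the dm6 assembly; 0 peaks passed an arm end. Replicates matched where summits were within 100 bp. Intervals are exact binomial (95%) and cover counting error only. Members, motifs and the 49 further genes were chosen with earlier results of these data known. Named genes were the 10 members, the gene with the start nearest to each summit and, per role, up to 2 with the highest signal and up to 2 without a summit. Counting, matching and motif search were tested on simulated data. Tools were python 3.11.15, numpy 2.4.6, pandas 2.3.3, scipy 1.17.1 and matplotlib 3.10.9.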

Additional observations from a re-analysis of the deposited data

How the results depend on the processing

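Of the 32 alternative values of the main counts and ranks, 24 stayed within the tolerance of 1.5 times (or within the spread of the replicates for ranks). With the gene body alone, 2 of the 10 genes were called (Mef2 and stumps), beside 9.06% of all protein-coding genes, and 8 peaks remained in reach. With the strongest 1000 thresholded peaks, 4 peaks were in reach of the 10 genes and 8 of the 49 further genes were called, beside 21.2% of all protein-coding genes. With the strongest 2750 peaks of each replicate as the match, 6 of the 15 peaks were matched in both, beside 60.5% of all thresholded peaks. The count of summit windows with an N-box, class B or class C site was 3 with 100 bp on either side (42.4% of all thresholded peaks) and 4 over whole peaks (46.7% of all). Leaving out each replicate in turn gave 8 and 8 called genes and 15 to 18 peaks. It called 24 to 27 of the 49 further genes, and both counts stand beside 42.7% to 43.8% of all protein-coding genes. Within 2 kb of a start, 5 to 6 genes were called, beside 16.5% to 17.0% of all. For the 6 called genes, the strongest thresholded peak had a median rank of 835. The peaks matched to these had a median rank of 1696 in replicate 1 and 749.5 in replicate 2. A matched peak need not be the strongest of its replicate: at tin, another peak was the strongest of replicate 1, with rank 622. The 3 medians count the peak shared by tin and bap for both genes, and likewise the peak shared by Doc2 and Doc3. Counting a summit once, an alternative chosen after seeing the data, left 4 genes. The cause of these shifts was not tested. No paired analysis was possible because the design has 1 group. Unknown depth limits any statement on peaks that were not called.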
